A study of Homo sapiens with 12 samples.

Results

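The FTO clusters in 3' UTRs are the distinct intervals of the authors' FTO CLIP-seq list whose own region entry is 3' UTR, with repeats of the same coordinates under several isoforms counted once. There were 2280 such clusters among 9579 distinct clusters of the list (23.8%, 95% Wilson interval 23.0 to 24.7%), and they lay in 1335 of the 3523 genes with any cluster. Coding exons held 4734 clusters, introns 960, 5' UTRs 123 and exons of noncoding transcripts 1289, and 193 clusters carried no region. No 3' UTR cluster carried another region entry under another isoform of the list, and 1161 were listed under several isoforms. Such agreement does not show that the entry is right for each isoform. Of the 2280, 2268 belonged to protein-coding genes.

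All samples were HEK293T cells, an established line derived from human embryonic kidney that expresses the large T antigen of SV40. FTO CLIP-seq was made from 1 sample of cells overexpressing FTO, and TRMT10A CLIP-seq from 3 samples of cells overexpressing TRMT10A, both after ultraviolet crosslinking, digestion with RNase T1 and recovery on anti-Flag beads. For m6A-seq, cells received siRNA against TRMT10A (siTRMT10A) or control siRNA (siCtrl), and pulldown and input were sequenced from 2 samples of each. The authors' tables hold no value for a single library, so the read depth is unknown and no spread between replicates could be measured. The tests below take clusters, peaks or genes as units, describe these lists and carry no error of the experiment. Clusters of 1 gene share its transcripts and are not independent, and transcript abundance was not measured.

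The 3' UTR follows the stop codon and carries sites for RNA-binding proteins and microRNAs that act on the stability, localisation and translation of an mRNA. N6-methyladenosine (m6A) is found in mRNA most often around the stop codon and in the 3' UTR, where reader proteins bind it. FTO is an oxygenase that removes the methyl group of m6A, and TRMT10A is a methyltransferase of the guanosine at the ninth position of tRNAs. In CLIP-seq of this kind, base changes at crosslinked positions are counted as conversion events, so a cluster with more events has more crosslinked reads behind it.

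Sequences for 3 of the clusters were found in the RefSeq tables (GRCh38.p14) and are shown to place the listed intervals in the transcript. A cluster of CSNK2B, the regulatory subunit of casein kinase II, lay on the plus strand at chr6:31669925-31669952 and had 4 conversion events. All 28 of its bases are given in lower case, and 21 of them are C or T. For B2M, the invariant subunit of class I major histocompatibility molecules, and PTMA, prothymosin alpha, the cluster ran into an annotated microRNA on the same strand. The mature microRNA is given with the bases inside the cluster in capitals.
CSNK2B cluster: gattccctcccccacctgtcctgcagtc
hsa-miR-10393-3p in B2M: uGGUCAGAUUUGAACUCUUCAA
hsa-miR-1244 in PTMA: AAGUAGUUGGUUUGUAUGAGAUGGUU
The B2M cluster (chr15:44717873-44717914, 5 events) held 21 of the 22 bases of its microRNA, and the PTMA cluster (chr2:231713368-231713407, 2 events) held all 26 bases. Both clusters ran past the mature sequence. PTMA has pseudogenes and hsa-miR-1244 has further gene copies, so reads there cannot be placed with certainty. Whether the list counts positions from 0 or from 1 is not stated, so the edges of an interval may be off by 1 base.

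Clusters in 3' UTRs carried few conversion events. The list starts at 2 events, and 1206 of the 2280 clusters (52.9%) had exactly 2. A further 517 had 3 events, 257 had 4, and 75 (3.29%) had 10 or more. The median was 2 events in 3' UTRs and 3 in coding exons and in introns. At least 3 events were reached by 47.1% of 3' UTR clusters (45.1 to 49.2%), 50.1% of coding clusters (48.7 to 51.6%) and 59.2% of intron clusters (56.0 to 62.2%). At 10 or more events were 25.6% of intron clusters and 49.4% of clusters in exons of noncoding transcripts. In all, 3' UTR clusters held 1.03% of the 800472 events of the list, of which 63.6% lay in noncoding exons and 33.1% in introns.

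**Figure D1:**
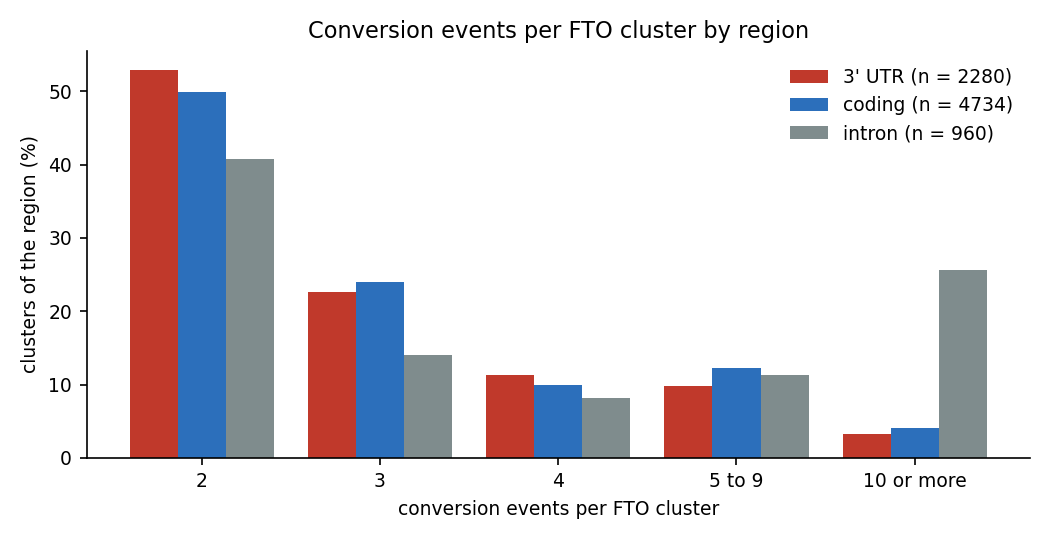
Share of FTO clusters (vertical axis, % of the clusters of each region) by number of conversion events (horizontal axis) for 3' UTRs, coding exons and introns of 1 FTO library. Clusters with 2 events make up 52.9% of the 3' UTR bars, and clusters with 10 or more make up 3.29%, against 25.6% in introns.

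Within genes that had both kinds of cluster, the 3' UTR clusters differed little from the coding clusters in events. Of 615 such genes, 260 had fewer events at the 3' UTR clusters, 203 had more and 152 were even. The probability within a gene that a 3' UTR cluster had more events than a coding cluster was taken with each tie counted as 0.5. Its mean was 0.476 (van Elteren test, adjusted p = 0.0754 over 10 tests). Many values are tied, and an exact conditional test over genes on the share of clusters with at least 3 events, chosen after the values were seen, gave an odds ratio of 0.815 (adjusted p = 0.0299). Against intron clusters of the same 112 genes the probability was 0.546 (van Elteren test, adjusted p = 0.0692). Pooled over genes this value was 0.377 (rank-sum test), on the other side of 0.5.

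The clusters were short. Their median length was 29 bases (quartiles 24 and 37, range 11 to 98), with 30 bases for coding and 27 for intron clusters. The probability within genes that a 3' UTR cluster was longer was taken with ties counted in the same way as for events. It was 0.449 against coding clusters and 0.542 against intron clusters (van Elteren test, adjusted p = 0.0692 and 0.121). Neither passed the threshold of 0.05. An exact conditional test on clusters longer than the list's median of 30 bases, also chosen after the values were seen, gave an odds ratio of 0.813 against coding clusters (adjusted p = 0.0206).

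The clusters lay near the ends of genes, as their region entry requires. The distance from the 3' end of the gene's annotated span could be taken for 2272 clusters and had a median of 1134 bases. Within 1000 bases of that end lay 1054 clusters (46.4%), and 389 (17.1%) lay within 250 bases. Another 245 (10.8%) lay 5000 bases or farther away. A gene's annotated span takes its longest transcripts, so a cluster in the shorter 3' UTR of an alternative isoform has a large distance.

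Most genes had a single 3' UTR cluster. This was so for 894 of the 1335 genes (67.0%), while 257 genes had 2, 184 had 3 or more and 14 had 10 or more. These 14 genes held 207 clusters. In 658 genes (49.3%) the 3' UTR held every cluster of the gene, and 615 (46.1%) had a coding cluster as well. Neighbouring 3' UTR clusters of 1 gene were separated by a median of 160 bases, and 384 of 945 gaps (40.6%) were below 100 bases. No cluster overlapped another on the same strand.

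The 3' UTR with the most clusters was that of SCD, the stearoyl-CoA desaturase that makes monounsaturated fatty acids. SCD had 30 clusters with 121 events over 3815 bases of chromosome 10 (100360984 to 100364798), from 3826 to 28 bases before the end of the gene. Its clusters had 2 to 12 events with a median of 3, and 10 of them had 2. The coding part of SCD had 7 clusters with 21 events.

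NUCKS1, a nuclear DNA-binding protein, had 23 clusters with at most 5 events each, the nearest 945 bases from the gene end. TOMM20, an import receptor of the mitochondrial outer membrane, had 18 clusters with 2 to 11 events, and CBX5, the heterochromatin protein HP1 alpha, had 14 with 2 to 5 events. Neither TOMM20 nor CBX5 had a coding cluster. The CBX5 clusters were the most widely spread of the 10 genes with the most clusters, over 10125 bases. AMOT, a scaffold of Hippo signalling, had 16 clusters in the 3' UTR and 13 in the coding part.

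In USP22 and CANX a single cluster held much of the total. USP22, the deubiquitinase of the SAGA complex, had 14 clusters with 82 events, 34 of them at 1 cluster 1530 bases from the gene end. CANX, which encodes the endoplasmic reticulum chaperone calnexin, had 12 clusters with 129 events, 82 of them at 1 cluster (chromosome 5, 179729422 to 179729475). The highest of the 16 coding clusters of CANX had 11 events. SLC7A5, a transporter of large neutral amino acids, and TMBIM6, a membrane protein of the endoplasmic reticulum, had 13 clusters each, with up to 15 and 8 events. ACTG1, cytoplasmic gamma-actin, had 11 clusters packed into 509 bases, with up to 33 events.

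**Figure D2:**
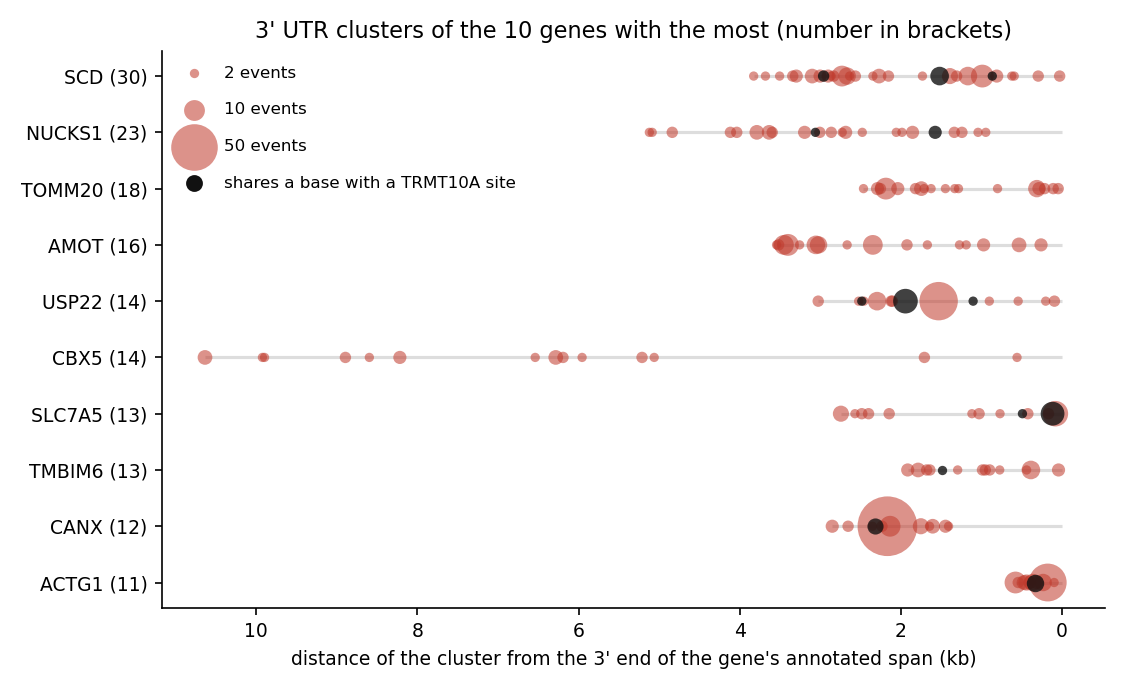
Position of each 3' UTR cluster as distance from the 3' end of the gene's annotated span (horizontal axis, kb, gene end at the right) for the 10 genes with the most clusters, with point area in proportion to conversion events and black points for clusters that share a base with a TRMT10A site. The 30 SCD clusters are spread over 3815 bases with at most 12 events each, while CANX has 1 cluster with 82 events and USP22 has 1 with 34.

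The highest counts of events in single clusters were partly at genes whose reads cannot be placed with certainty. MTRNR2L8 had the top cluster, with 290 events (chromosome 11, 10508106 to 10508128), MTRNR2L10 had 76 and MTRNR2L6 had 41. These genes resemble the mitochondrial 16S ribosomal RNA gene, and the 9 clusters of 4 MTRNR2L genes carried 559 of the 8208 events in 3' UTRs. A further 8 clusters crossed an annotated small RNA, with either strand allowed. Among these, 3 in TMEM107 lay on SNORD118, a small nucleolar RNA, with 78, 42 and 2 events, and were left out of the ranking.

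CANX stood first among the remaining genes. EDARADD, the adaptor of the ectodysplasin receptor, had a cluster of 64 events and no coding cluster. PTTG1IP, a binding partner of securin, had 53 events in its only 3' UTR cluster, and FAM120A, an RNA-binding scaffold, had 43 at a cluster 80 bases from the gene end. These genes had no coding cluster or, for FAM120A, 1 with 2 events. FASN, the fatty acid synthase, had 35 events in 1 cluster of the 3' UTR, and its 4 coding clusters had at most 5. With the MTRNR2L genes left out, the ranking went on with the clusters of USP22 and ACTG1 described above (34 and 33 events), the tumour suppressor FLCN (31), the mitochondrial supercomplex factor COX7A2L (29) and the complement regulator CD46 (26). FTO itself had 2 clusters in its 3' UTR, with 6 and 2 events, beside 1 coding cluster with 3. FTO was overexpressed in these cells, and no label says whether the construct held the 3' UTR. TRMT10A had no cluster.

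Gene groups differed in how often the FTO-bound members had a 3' UTR cluster. The background was 43.1% of the 3083 FTO-bound protein-coding genes, which had a median of 1 cluster per gene with any. The lists were chosen with earlier results of these data known and are described by counts only. Genes of sterol and fatty acid synthesis had a 3' UTR cluster in 12 of 19 bound genes, and the 48 clusters equalled the 48 in their coding parts. SCD held 30 of the 48. INSIG1, which retains the sterol sensor in the endoplasmic reticulum, had 4 clusters with up to 9 events, and ACLY, which makes cytosolic acetyl-CoA, had 3.

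Chaperones had 3' UTR clusters in 14 of 22 bound genes. HSP90AA1, the inducible cytosolic HSP90, had 8 clusters with 49 events, and CALR, calreticulin, had 5 with 20 events. Chaperones also had 175 coding clusters, so that 19.4% of their 3' UTR and coding clusters were in the 3' UTR, against 32.4% over all bound genes. Cytoskeletal genes had them in 14 of 23, led by ACTG1 (89 events), MYH9 (44), ACTB (43) and MYH10 (32). They also had 139 coding clusters beside 50 in 3' UTRs, a 3' UTR share of 26.5%. Of integrated stress response and amino acid synthesis genes, 7 of 11 had one, with 13 clusters in SLC7A5 and 4 in PSAT1, an enzyme of serine synthesis. In this last group the 3' UTR share of clusters was 52.1%.

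Among genes that act on RNA, the m6A machinery had 3' UTR clusters in 9 of 15 bound genes. HNRNPA2B1, a proposed reader, had 6 with up to 8 events, HNRNPC had 3, and the reader IGF2BP1 had 2 and no coding cluster. ALKBH5, the other demethylase of m6A, had 2 clusters of 2 events each and is named here beside FTO outside the naming rule. Proteins that bind 3' UTRs or act in decay had them in 11 of 19 bound genes, with 4 in PABPC1, the cytoplasmic poly(A)-binding protein (up to 14 events), and 6 in LARP1, which binds the caps of terminal oligopyrimidine mRNAs. STAU1, a binder of double-stranded RNA, and HNRNPD had 1 each, with 8 and 10 events.

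Splicing factors had 3' UTR clusters in 19 of 33 bound genes, led by HNRNPU (11 clusters) and SRSF1 (9), with 4 each in HNRNPH1 and HNRNPA3. Of the cleavage and polyadenylation factors 4 of 10 did, slightly below the background. They were CPSF7 (5 clusters), WDR33, CPSF3 and PAPOLA (1 each), and none of these 4 had a coding cluster. Solute carriers had 92 clusters in 36 of 65 bound genes, among them 11 in SLC38A1, a glutamine transporter, 9 in SLC7A1, an arginine transporter, and 5 in SLC16A1, a lactate transporter. Translation factors had them in 15 of 32 (46.9%), near the background, with 3 in EIF5A (up to 12 events), 4 in EEF2, 5 in EIF4B and 3 in EIF4G2. EEF2, the elongation factor, had 25 coding clusters with up to 126 events. Of the 3' UTR and coding clusters of translation factors, 20.4% were in the 3' UTR.

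Further groups lay below the background. No interval is given for the shares of gene groups, and several rest on few genes. Cytosolic ribosomal protein genes had a 3' UTR cluster in 17 of 75 bound genes (22.7%), with 30 clusters against 240 in coding parts. RPL41 (3 clusters, up to 16 events), RPL13A (4 clusters, up to 15 events), RPL8 (1 cluster, 16 events) and RPL39 (2 clusters, up to 11 events) led them. Replication-dependent histone mRNAs, whose 3' UTRs are short and end in a stem-loop, had one in 5 of 31 bound genes (16.1%), the highest with 9 events in H4C3. Cell cycle genes had one in 2 of 12, MDM4 (5 events) and MYC (3 events). C2H2 zinc finger genes had one in 12 of 36 bound genes (33.3%), with 3 each in ZNF24 and ZNF664. Shares of bound genes depend on the length of each 3' UTR and on transcript abundance, neither of which was measured.

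**Figure D3:**
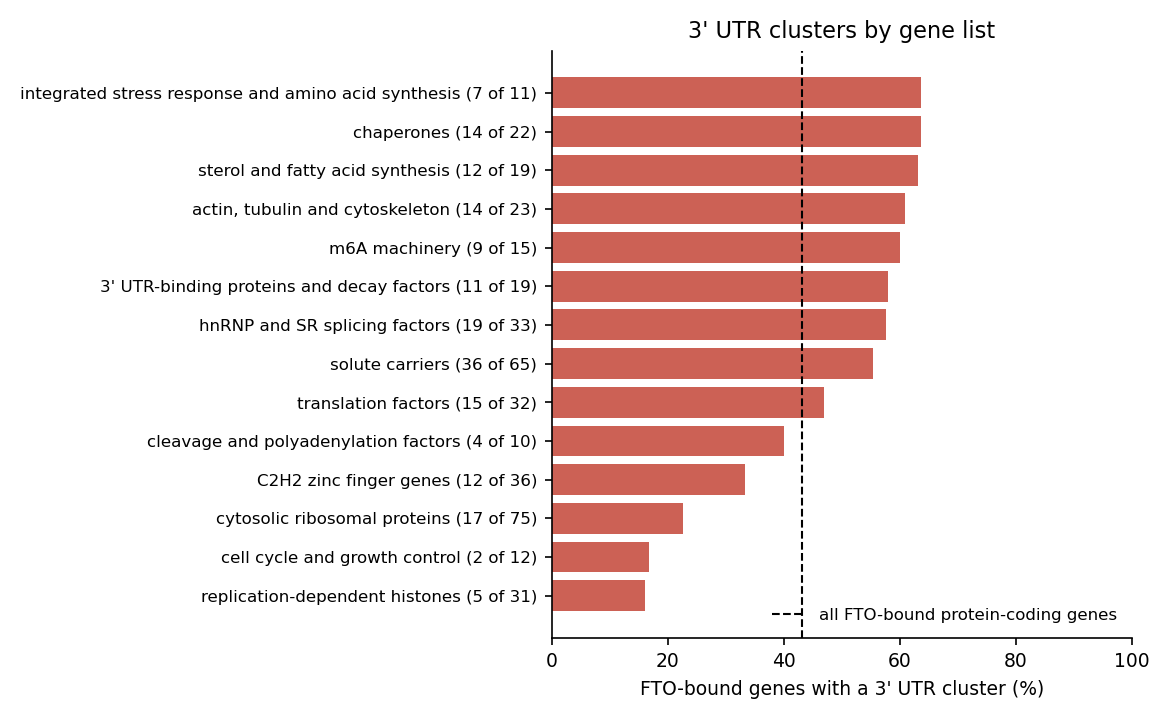
Share of FTO-bound genes with at least 1 cluster in the 3' UTR (horizontal axis, %) for 14 gene lists, with the counts in brackets and the 43.1% of all FTO-bound protein-coding genes as a dashed line. Ribosomal protein genes (17 of 75) and histone genes (5 of 31) lie below the line, and chaperones (14 of 22) lie above it.

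The next comparison asks how often FTO and TRMT10A were crosslinked at the same place in 3' UTRs. Of the 2280 clusters, 86 (3.77%, 3.06 to 4.63%) in 74 genes overlapped a TRMT10A site by 1 base or more, strand included. Over all regions 7.53% of clusters did. The share was 9.59% (8.78 to 10.5%) in coding exons and 11.5% (9.60 to 13.6%) in introns, and 2.64% (1.89 to 3.66%) in exons of noncoding transcripts. Within genes the difference from coding clusters was larger than counting error. In the 164 genes with both kinds of cluster and some but not all shared, 51 of 496 3' UTR clusters and 214 of 950 coding clusters were shared, for a Mantel-Haenszel odds ratio of 0.273 (95% interval 0.186 to 0.402, Cochran-Mantel-Haenszel test, two-sided, adjusted p = 1.36e-11). The 3' UTR share was lower in 136 of these genes and higher in 28. The gene strata do not adjust for how many TRMT10A sites lie in each region. Of the 5650 TRMT10A sites, 788 were annotated to 3' UTRs.

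Introns could not be set apart in the same way. Only 12 genes gave information, in which 13 of 64 clusters in 3' UTRs and 2 of 19 in introns were shared (odds ratio 3.62, interval 0.657 to 19.9, exact conditional test over genes, p = 0.191, Cochran-Mantel-Haenszel adjusted p = 0.125). Pooled over genes it was 0.303, in the opposite direction, by Fisher's exact test (adjusted p of 1.61e-14). The pooled value compares clusters of different genes.

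**Figure D4:**
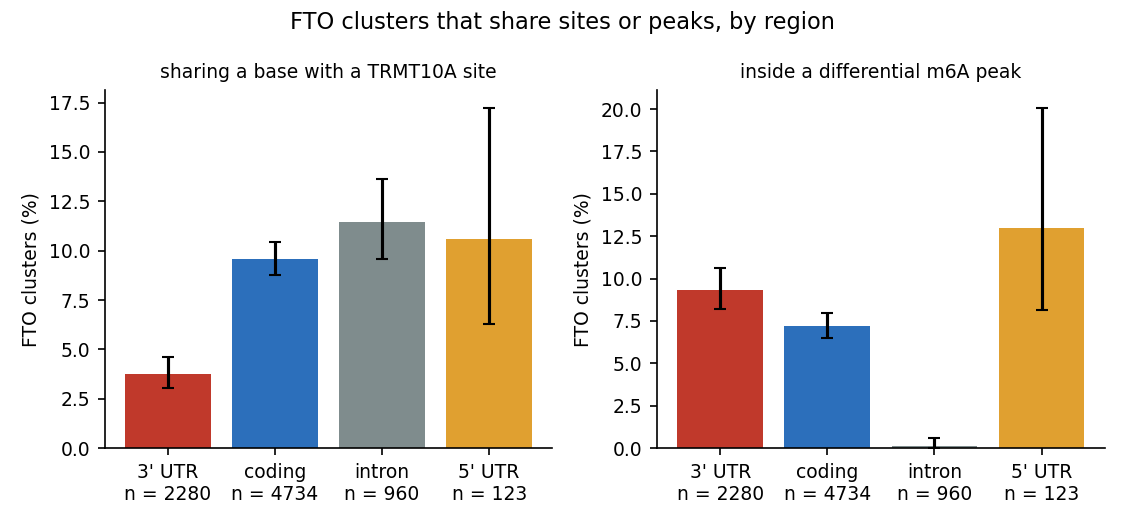
Share of FTO clusters (vertical axes, %) that share a base with a TRMT10A site (left) or lie in a differential m6A peak (right), by region, with 95% Wilson intervals that cover counting error only. Of the 4 regions drawn, the 3' UTR is the lowest on the left, at 3.77%, and lies at 9.34% on the right, where introns are at 0.104%.

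The peak height of a TRMT10A site is the authors' own score and was used only within that list. The 86 sites in contact with a 3' UTR cluster had a median height of 21, against 20 for all 5650 sites. Shared 3' UTR clusters had a median of 3 events and the others 2. The TRMT10A list placed 71 of the 86 sites in a 3' UTR, 8 in exons and 7 in noncoding transcripts, so both lists did not always give an interval the same region. From the other side, 71 of the 788 TRMT10A sites annotated to 3' UTRs (9.01%) met a 3' UTR cluster of FTO. An FTO cluster of any region was met by 73 of these 788 sites (9.26%) and by 12.5% of all TRMT10A sites.

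Among the highest shared sites, PKM, pyruvate kinase, had a height of 55 at a cluster of 13 events, and ACTG1 had 48 at a cluster of 7. GNAS, the stimulatory G protein alpha subunit, shared 4 of its 8 clusters, with heights of 52, 41, 35 and 29. The TRMT10A list annotates all 4 GNAS sites to exons and not to a 3' UTR. MTRNR2L10 had a height of 44 at its cluster of 76 events.

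Further high sites were at USP22 (41), the prolyl isomerase PPIA (40), the tetraspanin CD81 (35), the glycolytic enzyme ENO1 (35) and the actin-binding TMSB10 (34). USP22 shared 3 of its 14 clusters, at heights of 41, 41 and 37. Its cluster of 34 events was not among them, and neither was the cluster of 82 events of CANX. SCD also shared 3, of 30, at heights of 19, 17 and 16. The coding part of SCD shared 1 of 7, and that of PKM 4 of 15. In all, 8 genes shared 2 or more 3' UTR clusters.

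The last comparison sets the clusters against the m6A peaks that differed between TRMT10A knockdown and control in the authors' deposited table. The table lists only peaks past its threshold and does not state which condition is the numerator, so signs are given as deposited. Of the 2280 clusters, 213 (9.34%, 8.21 to 10.6%) lay in such a peak. Over all regions 6.55% did, with 7.20% (6.50 to 7.97%) in coding exons and 13.0% (8.17 to 20.1%) of the 123 clusters in 5' UTRs. In 108 genes with both kinds of cluster and some but not all in a peak, 112 of 248 3' UTR clusters and 144 of 508 coding clusters were inside one (odds ratio 1.62, interval 1.19 to 2.22, Cochran-Mantel-Haenszel test, two-sided, adjusted p = 0.00159). The 3' UTR share was higher in 60 genes and lower in 48. Clusters in the same peak were counted as separate units, which the interval and the p-value do not take into account.

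Only 1 of 960 intron clusters lay in a peak. The m6A peaks are listed as exon blocks and were measured in polyadenylated RNA, so the comparison with introns is not read as a result. The 213 clusters lay in 149 peaks, of which 109 held 1 cluster and 40 held 2 or more. SEC61A1, the channel subunit of the endoplasmic reticulum translocon, had all 9 of its 3' UTR clusters in 1 peak, and CALR had all 5.

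Peaks that held a 3' UTR cluster were less often positive than other listed peaks. Of the 149, 68 had in the authors' deposited table a positive log2 fold change (45.6%, 37.8 to 53.6%), and 66.5% of all 2023 listed peaks did. Of the 174 peaks that held a coding cluster and none in a 3' UTR, 123 were positive (70.7%, 63.5 to 76.9%). Between these groups Fisher's exact test (two-sided) gave an odds ratio of 0.348 with an adjusted p of 2.73e-05. Peaks without any FTO cluster were positive in 68.0% of 1667 cases. By the authors' deposited table, peaks with a 3' UTR cluster had a median absolute log2 fold change of 0.44 and those with coding clusters only one of 0.43. In the authors' deposited table it was higher, at 0.68, for peaks without any FTO cluster, and 0.63 for all listed peaks.

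Peaks with a 3' UTR cluster more often consisted of 1 exon block (54.4% against 28.7% with coding clusters only). Among peaks of 1 block alone, Fisher's exact test gave an odds ratio of 0.222 with an adjusted p of 0.000241. Among peaks that ended within 1000 bases of the gene end, 27 of 54 with a 3' UTR cluster, 23 of 28 with coding clusters only and 322 of 465 with no FTO cluster (69.2%) were positive. These cuts were made after the values were seen. At the level of genes the difference was smaller. Of 336 genes with a 3' UTR cluster and m6A peaks of 1 sign, 199 were positive (59.2%), against 195 of 298 other FTO-bound genes (65.4%) and 65.6% of all 1736 genes with peaks of 1 sign (Fisher's exact test between both groups, odds ratio 0.767, adjusted p of 0.125). With only clusters of at least 4 events counted, Fisher's exact test gave an odds ratio of 0.431 with an adjusted p of 0.00427. The other alternatives for genes did not pass the threshold. With only peaks that changed by 0.5 or more on the log2 scale, in either direction, the odds ratio was 0.999. Without repeated copies it was 0.758, and for genes with at least 3 distinct FTO clusters 0.670 (Fisher's exact test, adjusted p = 0.113 and 0.236).

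**Figure D5:**
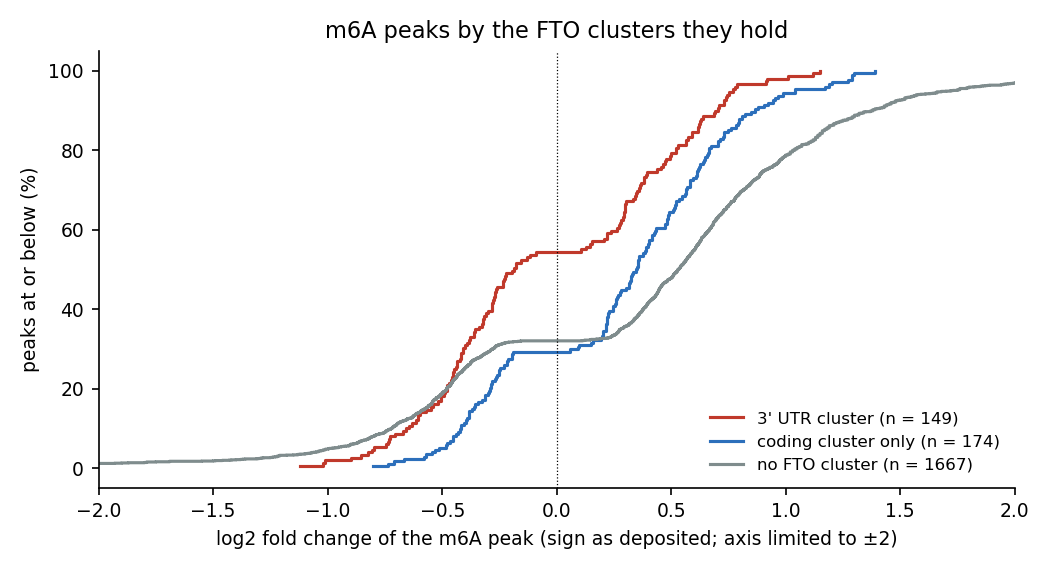
Cumulative share of m6A peaks (vertical axis, %) by log2 fold change (horizontal axis, sign as deposited, limited to 2 on either side) for peaks with a 3' UTR cluster, with coding clusters only and with no FTO cluster. At 0 the line of peaks with a 3' UTR cluster stands above the others, since 81 of 149 are negative, against 51 of 174 with coding clusters only.

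The largest values were of both signs. In the authors' deposited table the positive end was led by BASP1, a membrane-attached signalling protein (log2 fold change 1.15), SAMD11 (1.12) and INCENP, a subunit of the chromosomal passenger complex (1.01). SLC38A10 (0.92) and AURKAIP1, a protein of the mitochondrial ribosome (0.92), followed in the authors' deposited table. Among peaks with a 3' UTR cluster, the authors' deposited table gave the lowest values to DDX17, an RNA helicase (-1.12), TM9SF3 (-1.02), LUC7L3, a splicing factor (-1.01), OGA, which removes O-linked N-acetylglucosamine (-0.90), and MAN1A2, a Golgi mannosidase (-0.85). Fold enrichment over input in these named peaks ran from 1.24 at TM9SF3 and 1.27 at DDX17 to 23.6 at SLC38A10 in the authors' deposited table. The median of peaks with a 3' UTR cluster was 5.85. The peak of DDX17 held 2 of its 10 clusters in the 3' UTR, 1 of them with 8 events. BASP1, INCENP and SLC38A10 had 1 cluster each in the peak, with 2, 3 and 2 events.

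Both measures met at 12 clusters, in 11 peaks of which 4 were positive and 7 negative. In the authors' deposited table TSPYL1 (-0.74, cluster of 8 events), ADIPOR2, an adiponectin receptor (-0.67), and the noncoding LINC02693 (-0.42) had the most negative values. PPP1R9B, a regulator of protein phosphatase 1 (0.62), and RANGAP1, the activator of the GTPase Ran (0.61), had the most positive values of the authors' deposited table. SEC61A1 had 2 of the 12 clusters, with 18 and 3 events, in its peak of -0.18 in the authors' deposited table. Fold enrichment over input in the 11 peaks ran from 1.29 at TSPYL1 to 11.5 at SEC61A1 in the authors' deposited table. These genes were chosen after their values were seen.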

How the data were processed

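All values start from the authors' deposited lists, with coordinates in hg38 (per the submitters' processing notes, which also name DESeq2 without a role). The aligner and the peak callers are not given in the sources used here. In the deposited FTO list there is a count of conversion events per cluster and transcript, and 19163 entries reduced to 9579 distinct intervals. Of its lines, 2 are cut off, and what is listed on them holds no 3' UTR cluster. The deposited TRMT10A list gives a peak height as a score and does not separate its 3 libraries. The deposited m6A table gives a log2 fold change and a fold enrichment (ratio) of each differential peak, per the file headers, with logarithms of its p-values as a score.

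A cluster shared by several genes was given to 1, protein-coding first, and symbols came from RefSeq. Overlap needed 1 base on the same strand, except with small RNAs, where either strand counted. Shares were compared over gene strata with the Cochran-Mantel-Haenszel test, values with van Elteren's test and signs with Fisher's exact test, and p-values were adjusted over these 10 tests by Benjamini-Hochberg. An alternative was adjusted in place of its own test. Wilson intervals have a level of 95% and cover counting error only. Steps were tested on simulated data. Python 3.11.15, scipy 1.17.1, statsmodels 0.14.6 and pandas 2.3.3 were used.

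The members, gene lists and tests were chosen with earlier results of these data known. Named genes were the 10 with the highest 3' UTR cluster outside small RNA genes, the most clusters, the highest shared TRMT10A site and the largest m6A value, up to 4 per list, FTO and TRMT10A. A gene drawn by this rule is not reported here. A search for an m6A motif was not run, since no genome was used here.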

Additional observations from a re-analysis of the deposited data

How the results depend on the processing

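Of 38 tested values under alternatives, 28 kept their direction and their side of the threshold, among them all for the TRMT10A share against coding clusters (odds ratio 0.236 to 0.370) and for the m6A share against coding clusters. These leave out the m6A share against introns and the alternative without clusters that another isoform places elsewhere, which removed no cluster. Some of the 28 were identical to the main value, so that their direction says nothing further. Among them were the TRMT10A share against introns (3.62) with 0.5 of the shorter interval overlapped or clusters moved by 1 base. The m6A sign of peaks without repeated copies (0.348) was also unchanged. Pooling clusters over genes turned the TRMT10A share against introns to an odds ratio of 0.303 and events against introns to a probability of 0.377, and it brought past the threshold events against coding clusters (0.482) and length against coding (0.478) and intron clusters (0.553). With at least 4 events, events against coding clusters turned to 0.512 and length to 0.587, neither past the threshold, and the m6A sign of genes passed at 0.431. That limit left 557 of 2280 clusters. The 28 values that kept their direction include the m6A sign of genes at an odds ratio of 0.999, which shows no difference. It was obtained with only peaks that changed by 0.5 or more on the log2 scale, in either direction. The exact tests added after seeing the data passed for events (0.815) and length (0.813) against coding clusters. Against intron clusters the same exact conditional tests did not pass, with odds ratios of 1.52 for events and 1.47 for length (adjusted p = 0.0754 and 0.0685). The causes were not tested. For both intron shares too few genes remained at 4 events to give a value. No paired analysis was possible because no table gives values per library, and for the same reason no library could be left out. Read depth is unknown, and 1 FTO library gives no replicate error.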
